A study of Mus musculus with 6 samples.

Results

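Macrophage identity genes are 43 transcripts by which tissue macrophages are usually recognised, taken here as a list of symbols for surface receptors, complement components, secreted products and transcription factors. All 43 symbols were found among the 22098 gene symbols of the expression table, and a symbol with several transcript rows was represented by the row with the highest mean level (9 of the 43). They were followed in mouse pro-B acute lymphoblastic leukaemia cells grown in culture after C57BL/6 bone marrow had been transduced with a retrovirus carrying BCR-ABL p185 and a YFP reporter. The groups were Ikaros_ZnF4-/- cells (ZnF4 mutant), which lack the fourth zinc finger of the transcription factor Ikaros (Ikzf1), Ikaros_ZnF1-/- cells (ZnF1 mutant), which lack the first, and wild type (wt) cells, and all of them carried the same BCR-ABL retrovirus. Each genotype was sequenced once at day 21 and once at day 28 of culture, so n = 2 per genotype, and the labels say neither the age of the donor mice nor whether both days came from the same culture. P-values here therefore cover the spread between these libraries alone, which may be technical, and what belongs to a single culture cannot be told apart from its genotype.

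Macrophages are phagocytes of the myeloid lineage. Their survival depends on the receptor for macrophage colony-stimulating factor, their lineage programme on the factors PU.1 and C/EBP, and their work on receptors that bind microbes, dead cells and complement, followed by digestion in an acidic, oxidant-producing compartment. Pro-B cells are lymphoid and express few of these genes. Cells of the labelled type were present in every library, since all 12 B-lineage markers examined were detected in all 6, with summed levels of 3024.3 and 2702 RPKM in the ZnF4 mutant at day 21 and day 28, 2808.5 and 2772 RPKM in the ZnF1 mutant, and 2808.7 and 2582.8 RPKM in wild type. These sums cover differences between single markers. In the limma model described below, 4 of the 12 were called higher and 1, Dntt, lower in the ZnF4 mutant than in wild type. Of all tested genes 10.9% were higher and 7.32% lower. In the ZnF1 mutant 2 of the 12, Rag1 and Rag2, were higher and 0 lower, where 22.9% and 15.2% of all tested genes were. RPKM is the deposited unit, reads scaled by transcript length and by the mapped reads of the library, so levels can be compared between genes. The read depth is unknown. Bulk RNA cannot tell apart fewer cells of a type and less RNA per cell, and this holds for every result below.

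The macrophage genes were most abundant in the ZnF1 mutant and, as a sum, least abundant in the ZnF4 mutant. Together they stood at 437.9 and 519.4 RPKM in the ZnF4 libraries at day 21 and day 28, 3738.3 and 4106.4 RPKM in the ZnF1 mutant, and 977 and 627.1 RPKM in wild type. These sums made up 0.152% and 0.175% of all summed RPKM in the ZnF4 libraries, 1.36% and 1.40% in the ZnF1 libraries, and 0.344% and 0.215% in the wild type libraries. The 3 genotypes did not overlap. The list contained 7 to 8 genes above 100 RPKM in the ZnF1 libraries, 1 in each ZnF4 library, and 1 to 2 in wild type.

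**Figure D1:**
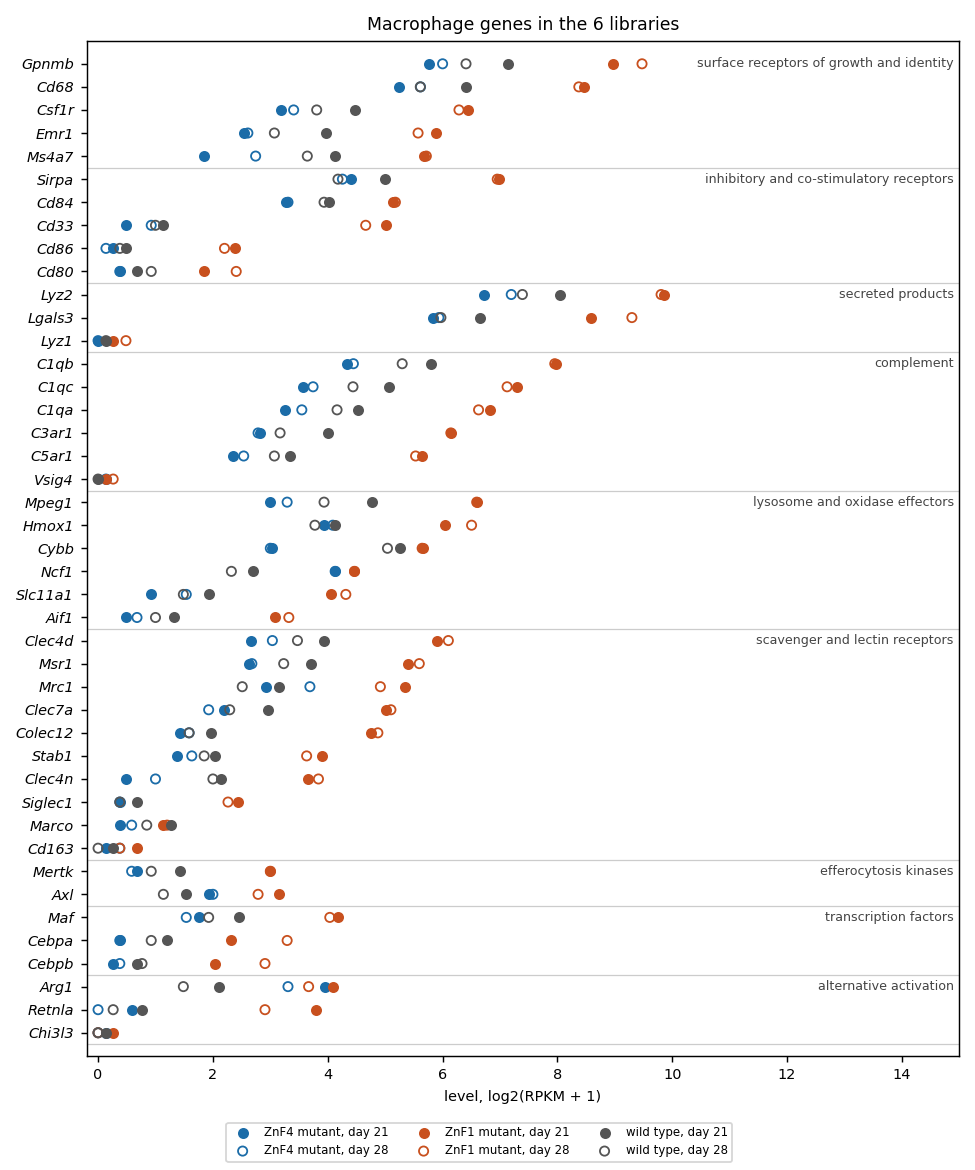
Level of each of the 43 macrophage genes in each library, as log2(RPKM + 1), grouped by role and with filled symbols for day 21 and open symbols for day 28. The ZnF1 libraries lie to the right of both other genotypes for 37 of the 39 tested genes, where 24.7% of all tested genes do so. Marco and Arg1 are the exceptions, and Lyz1, Cd163, Vsig4 and Chi3l3 stay below 1 RPKM throughout.

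Differences between genotypes were estimated as log2(RPKM + 1) in a limma model of the 6 libraries, with genotype and day as terms, and stand beside their standard errors. Adding 1 makes them smaller than the true log2 ratio for scarce genes. A gene is called when its Benjamini-Hochberg adjusted p over the 11379 tested genes is below 0.05. A gene was tested when it reached 1 RPKM in at least 2 libraries, which 39 of the 43 macrophage genes did. Of these, 8 (Marco, Siglec1, Mertk, Cd86, Cd80, Cebpa, Cebpb and Retnla) passed that filter only through the ZnF1 libraries. The other 4 genes were at or below 0.6 RPKM everywhere. In the ZnF1 mutant 38 of the 39 were higher than in wild type and 0 lower, where 22.9% of all tested genes were higher and 15.2% lower (38.1% in either direction). Both ZnF1 libraries lay above both wild type libraries for the same number, 38, where 34.7% of tested genes did so. All 31 genes that would have been tested without the ZnF1 libraries were among the 38. The median difference of the 39 was 2.21, beside -0.02 for all tested genes. In the ZnF4 mutant 14 of the 39 were lower than in wild type, 3 were higher and 22 were not called, where 7.32% of tested genes were lower and 10.9% higher (18.2% in either direction). Both ZnF4 libraries lay below both wild type libraries for 28 of the 39 and above them for 3, where 24.6% and 30.9% of tested genes did so. The median difference of the 39 in that comparison was -0.57, beside 0.02 for all tested genes. Set directly against the ZnF1 mutant, the ZnF4 mutant was lower in 37 of 39 and higher in 0, where 23.2% of tested genes were lower and 22.3% higher (45.5% in either direction). The median difference was -2.87, beside 0.03 for all tested genes. Of the 31 genes that would have been tested without the ZnF1 libraries, 29 were lower and 0 higher, with a median difference of -2.99. Both mutant comparisons with wild type share the wild type libraries.

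The count in the ZnF4 mutant against wild type changed with the libraries used. It was 17 with all of them, 5 without the ZnF4 library of day 21, 7 without that of day 28, 12 without either ZnF1 library, and 4 or 11 when the wild type library left out was that of day 21 or of day 28. The share of all tested genes called fell too, to 5.92% and 3.97% without the ZnF4 library of day 21 and of day 28, 15.1% and 15.3% without those of the ZnF1 mutant, and 4.22% and 3.56% without those of wild type. Their median difference was -0.33 when wild type lacked its day 21 library and -0.85 when it lacked that of day 28. Without the filter on low values 4 were called, and 7.47% of all genes. The calls of Cybb, Ncf1 and Arg1 held under every alternative tried. Each of the other 14 was lost without at least 1 library, with adjusted p up to 0.279. The counts for the ZnF1 mutant against wild type (30 to 38) and for the ZnF4 against the ZnF1 mutant (30 to 37) stayed closer to their values with all libraries. Where a library was left out, the remaining library of its genotype was assumed to vary like the others.

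**Figure D2:**
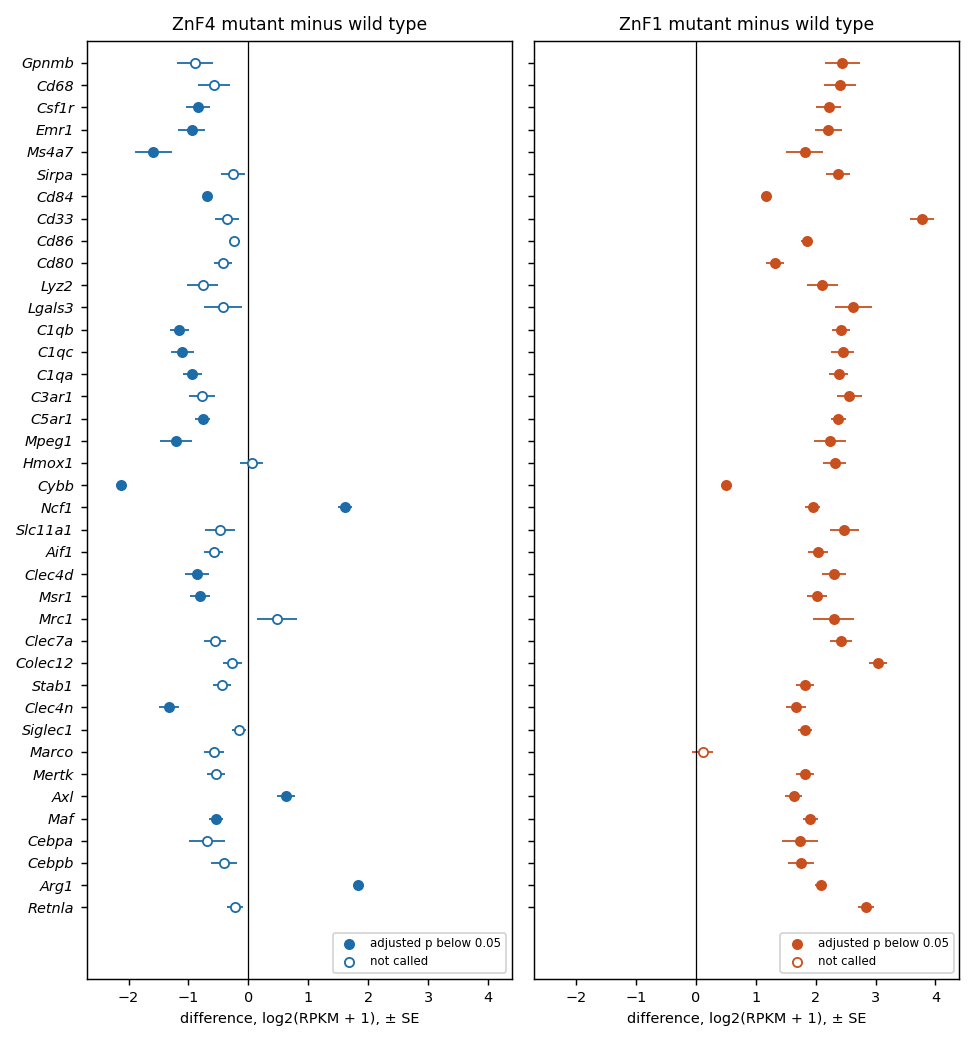
Difference from wild type of the 39 tested macrophage genes in the ZnF4 mutant (left) and the ZnF1 mutant (right), on the log2(RPKM + 1) scale with standard errors and with filled symbols for adjusted p below 0.05. In the ZnF1 mutant 38 of 39 lie to the right of 0 past the threshold and most stand near 2, whereas in the ZnF4 mutant most lie to the left, with Ncf1, Arg1 and Axl called higher.

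Among the receptors of growth and identity, the macrophage colony-stimulating factor receptor Csf1r had 8.1 and 9.6 RPKM in the ZnF4 libraries of day 21 and day 28, 85.5 and 77 RPKM in the ZnF1 libraries, and 21.2 and 13 RPKM in wild type. The genotypes did not overlap. It was higher by 2.22 ± 0.21 in the ZnF1 mutant (adjusted p = 0.00167). In the ZnF4 mutant it was lower by a difference of -0.84 ± 0.21 (adjusted p = 0.0473), but leaving out any of the 6 libraries, the filter, the block on day or the variance trend ended that call (adjusted p up to 0.234). Its difference was -0.53 once the ZnF4 library of day 21 was removed and -0.49 once the wild type one of that day was. Emr1, an adhesion receptor that carries the classical macrophage surface antigen of mice, stood at 4.8 and 5.1 RPKM in the ZnF4 libraries, 57.9 and 46.6 RPKM in the ZnF1 mutant, and 14.6 and 7.4 RPKM in wild type. It showed the same order as Csf1r, with differences from wild type of -0.94 ± 0.22 in the ZnF4 mutant (adjusted p = 0.0447) and 2.21 ± 0.22 in the ZnF1 mutant (adjusted p = 0.00203). Its ZnF4 call ended under the same omissions as that of Csf1r (adjusted p up to 0.211), with differences of -0.61 and -0.56 once the ZnF4 or the wild type library of day 21 was removed.

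Cd68, a glycoprotein of the lysosomal membrane, stood at 36.8 and 48 RPKM in the ZnF4 libraries, 350.5 and 330.4 RPKM in the ZnF1 mutant, and 83.5 and 47.9 RPKM in wild type. The ZnF1 libraries stood apart, while the day 28 values of the ZnF4 mutant and wild type almost coincided, and the ZnF4 difference was not called (-0.58 ± 0.26, adjusted p = 0.207). Gpnmb, a transmembrane glycoprotein of phagosomes, was among the most abundant of the list, with 53.3 and 63 RPKM in the ZnF4 mutant, 496.7 and 709.6 RPKM in the ZnF1 mutant, and 139.6 and 83.9 RPKM in wild type. Only its ZnF1 difference was called (2.44 ± 0.29, adjusted p = 0.00319; ZnF4 -0.89 ± 0.29, adjusted p = 0.103). Ms4a7, a membrane protein of the MS4A family, stood at 2.6 and 5.7 RPKM in the ZnF4 libraries, 50.4 and 51.6 RPKM in the ZnF1 mutant, and 16.4 and 11.5 RPKM in wild type. Its libraries were also fully separated by genotype, with differences of -1.59 ± 0.31 in the ZnF4 mutant and 1.82 ± 0.31 in the ZnF1 mutant. Omitting the ZnF4 library of day 21 (difference -1.03), either wild type library or the filter ended the ZnF4 call of Ms4a7 (adjusted p up to 0.186). Omitting either ZnF1 library, the day 28 library of wild type or the filter ended its ZnF1 call (adjusted p up to 0.0816).

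The complement genes were higher in the ZnF1 mutant for 5 of 5 tested and lower in the ZnF4 mutant for 4 of 5. Of all tested genes 22.9% were higher in the ZnF1 mutant and 7.32% lower in the ZnF4 mutant. C1qa, C1qb and C1qc encode the chains of C1q, the recognition component of the classical complement pathway, and are made mainly by macrophages. C1qb stood at 19.3 and 20.8 RPKM in the ZnF4 libraries at day 21 and day 28, 249.8 and 246.9 RPKM in the ZnF1 mutant, and 54.4 and 38.3 RPKM in wild type. C1qa stood at 8.6 and 10.7 RPKM in the ZnF4 libraries, 112.5 and 97.8 RPKM in the ZnF1 mutant, and 22 and 16.9 RPKM in wild type. C1qc stood at 10.8 and 12.4 RPKM in the ZnF4 libraries, 155.2 and 138.4 RPKM in the ZnF1 mutant, and 32.5 and 20.7 RPKM in wild type. No genotypes overlapped in any chain. The 3 chains were higher in the ZnF1 mutant by 2.38 to 2.45 and lower in the ZnF4 mutant, with differences of -0.94, -1.15 and -1.10 for C1qa, C1qb and C1qc (adjusted p 0.00835 to 0.0179). Omitting the ZnF4 library of day 21 or the filter ended all 3 ZnF4 calls. Omitting either wild type library ended that of C1qa, the ZnF4 library of day 28 that of C1qb and C1qc, and the day 21 library of wild type that of C1qc (adjusted p up to 0.169). The anaphylatoxin receptors C3ar1 and C5ar1, which sense the fragments released when complement is cleaved, also separated the genotypes. C3ar1 stood at 6.1 and 5.9 RPKM in the ZnF4 libraries, 70.2 and 69.7 RPKM in the ZnF1 mutant, and 15 and 8 RPKM in wild type. C5ar1 stood at 4.1 and 4.8 RPKM in the ZnF4 libraries, 48.9 and 45.2 RPKM in the ZnF1 mutant, and 9.1 and 7.4 RPKM in wild type. They were higher in the ZnF1 mutant by 2.56 ± 0.21 and 2.38 ± 0.12. C5ar1 was called lower in the ZnF4 mutant (-0.76 ± 0.12, adjusted p = 0.0153), and that call ended on omitting the ZnF4 library of day 21, either wild type library or the filter (adjusted p up to 0.152). C3ar1 had a ZnF4 difference of -0.78 ± 0.21 that was not called (adjusted p = 0.0666). Vsig4, a complement receptor of resident tissue macrophages, was at 0.2 RPKM or below in every library.

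The start regions of Cd33, C1qb and C1qc, the macrophage genes with the largest differences between the ZnF4 and ZnF1 mutants among those with an entry, are shown as the 250 bases upstream of the RefSeq transcription start (build GRCm38.p6, not the build of the expression values). The windows are chr4:136886201-136886450 for C1qb, chr4:136892915-136893164 for C1qc and chr7:43533172-43533421 for Cd33, all on the minus strand and written 5′ to 3′ along the gene. Capitals mark the letters GGGAA (the core bound by Ikaros), GAGGAA (the core bound by PU.1) and TTNNGNAA (a C/EBP pattern), on either strand.
C1qb: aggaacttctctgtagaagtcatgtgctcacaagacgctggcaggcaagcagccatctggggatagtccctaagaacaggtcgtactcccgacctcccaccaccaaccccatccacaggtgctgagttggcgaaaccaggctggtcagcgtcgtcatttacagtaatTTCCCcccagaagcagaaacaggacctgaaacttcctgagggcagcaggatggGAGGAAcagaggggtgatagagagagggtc
C1qc: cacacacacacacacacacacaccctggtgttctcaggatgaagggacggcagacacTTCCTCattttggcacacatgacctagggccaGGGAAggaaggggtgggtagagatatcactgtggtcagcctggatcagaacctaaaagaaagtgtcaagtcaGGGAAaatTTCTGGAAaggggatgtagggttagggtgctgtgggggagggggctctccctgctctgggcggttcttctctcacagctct
Cd33: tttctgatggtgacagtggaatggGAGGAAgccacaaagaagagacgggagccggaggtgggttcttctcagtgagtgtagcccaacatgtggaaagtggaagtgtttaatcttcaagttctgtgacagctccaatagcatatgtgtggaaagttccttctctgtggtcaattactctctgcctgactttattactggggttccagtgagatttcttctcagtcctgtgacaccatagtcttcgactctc
The window of C1qb held GGGAA once and GAGGAA once, that of C1qc held GGGAA at 2 places, GAGGAA once and TTNNGNAA once, and that of Cd33 held GAGGAA once. Mpeg1, next in size of difference, had none of the 3 patterns in its 250 bases, which are not printed. No matches to different patterns overlapped in these windows. Of the 43 genes 31 matched an entry of the RefSeq promoter table, with 33 start regions. GGGAA was in 21 of the 33 (63.6%), beside 56.2% of all 32851 start regions of that length. GAGGAA was in 15 (45.5%), beside 23.3%, and TTNNGNAA in 17 (51.5%), beside 36.8%. A match of letters is not a binding site.

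Among the secreted products, Lyz2, the lysozyme of macrophages, was the most abundant transcript of the list in all 6 libraries. It stood at 104.6 and 145.6 RPKM in the ZnF4 libraries, 927.8 and 893.5 RPKM in the ZnF1 mutant, and 263.8 and 166.7 RPKM in wild type. Its ZnF1 difference was called (2.11 ± 0.26, adjusted p = 0.00345) and its ZnF4 difference was not (-0.76 ± 0.26, adjusted p = 0.112), although the ZnF4 and wild type libraries did not overlap. Lyz1, the intestinal lysozyme gene, had at most 0.4 RPKM. The reference transcripts of Lyz1 and Lyz2 were identical at 1211 of 1262 aligned bases (96.0%), so how reads were divided between the pair is uncertain. Lgals3, which encodes a galectin secreted by activated macrophages, stood at 56.2 and 60.2 RPKM in the ZnF4 libraries, 383.3 and 627.9 RPKM in the ZnF1 mutant, and 99.5 and 61.7 RPKM in wild type. It was higher in the ZnF1 mutant by 2.63 ± 0.31 (adjusted p = 0.00309), and not called in the ZnF4 mutant (-0.42 ± 0.31, adjusted p = 0.418).

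The scavenger and lectin receptors, by which macrophages take up lipoproteins, glycans and microbes, were higher in the ZnF1 mutant for 8 of 9 tested members. Of all tested genes 22.9% were higher there. Among the 9, Marco and Siglec1 passed the filter only through the ZnF1 libraries. Colec12, a scavenger receptor with a lectin domain that vascular and stromal cells also make, stood at 1.7 and 2 RPKM in the ZnF4 libraries, 26 and 28.3 RPKM in the ZnF1 mutant, and 2.9 and 2 RPKM in wild type. Its ZnF1 level was 8.97 times the wild type level at day 21 and 14.2 times at day 28, above most of the list (difference 3.04 ± 0.15, adjusted p = 0.001), and the ZnF4 and wild type libraries met at 2 RPKM. The class A scavenger receptor Msr1 stood at 5.2 and 5.4 RPKM in the ZnF4 libraries, 40.9 and 47.3 RPKM in the ZnF1 mutant, and 12 and 8.4 RPKM in wild type. The β-glucan receptor Clec7a stood at 3.6 and 2.8 RPKM in the ZnF4 libraries, 31.3 and 33.3 RPKM in the ZnF1 mutant, and 6.8 and 3.9 RPKM in wild type. Neither overlapped between genotypes, and both were higher in the ZnF1 mutant, by 2.02 ± 0.17 and 2.43 ± 0.18. Marco, another class A receptor of the list, was the exception among all 39, with 0.3 and 0.5 RPKM in the ZnF4 mutant, 1.2 and 1.3 RPKM in the ZnF1 mutant, and 1.4 and 0.8 RPKM in wild type. Its ZnF1 and wild type libraries overlapped (0.11 ± 0.17, adjusted p = 0.629). Between the mutants Marco was called lower in the ZnF4 mutant (-0.69 ± 0.17, adjusted p = 0.0253), which did not hold on omitting any of the mutant libraries or the filter, or with quantile scaling (adjusted p up to 0.426).

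The lectin Clec4n, which recognises fungal mannans, stood at 0.4 and 1 RPKM in the ZnF4 libraries, 11.6 and 13.3 RPKM in the ZnF1 mutant, and 3.4 and 3 RPKM in wild type. It was lower in the ZnF4 mutant (-1.33 ± 0.17, adjusted p = 0.00732), which did not hold on omitting the filter or either of the ZnF4 and wild type libraries of day 21 (adjusted p up to 0.0688). The related lectin Clec4d stood at 5.3 and 7.2 RPKM in the ZnF4 libraries, 58.9 and 67.6 RPKM in the ZnF1 mutant, and 14.2 and 10.1 RPKM in wild type, again without overlap. Msr1 and Clec4d were also called lower in the ZnF4 mutant (-0.81 ± 0.17 and -0.85 ± 0.20). Omitting the filter, either ZnF4 library or the wild type library of day 21 ended both calls (adjusted p up to 0.187 and 0.227), the last with differences of -0.52 and -0.48, and omitting either ZnF1 library or the variance trend, or summing transcript rows, ended that of Clec4d too. The mannose receptor Mrc1 departed from this, with 6.6 and 11.9 RPKM in the ZnF4 mutant, 39.7 and 29.2 RPKM in the ZnF1 mutant, and 7.9 and 4.7 RPKM in wild type. At day 28 the ZnF4 library held 2.53 times the wild type level and at day 21 0.835 times, and the difference was not called (0.48 ± 0.34, adjusted p = 0.402). The ZnF1 call of Mrc1 (2.30 ± 0.34, adjusted p = 0.00621) did not hold on omitting the ZnF1 library of day 21 or the day 28 library of wild type (adjusted p up to 0.0758). Against the ZnF1 mutant, Mrc1 was lower in the ZnF4 mutant (-1.82 ± 0.34), which did not hold on omitting the ZnF1 library of day 21 or the filter (adjusted p up to 0.0699), with a difference of -1.17 without the ZnF4 library of day 21. Siglec1 (sialoadhesin) had 0.3 RPKM at both days in the ZnF4 mutant, 4.4 and 3.8 RPKM in the ZnF1 mutant, and 0.6 and 0.3 RPKM in wild type. Stab1 (stabilin), an endocytic receptor, stood at 1.6 and 2.1 RPKM in the ZnF4 libraries, 14 and 11.4 RPKM in the ZnF1 mutant, and 3.1 and 2.6 RPKM in wild type. Both were higher in the ZnF1 mutant, by 1.82 ± 0.12 and 1.83 ± 0.15, and neither was called in the ZnF4 mutant. The haemoglobin scavenger receptor Cd163 reached at most 0.6 RPKM.

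Of the inhibitory and co-stimulatory receptors, Cd33, a sialic acid-binding receptor, stood at 0.4 and 0.9 RPKM in the ZnF4 libraries, 31.4 and 24.3 RPKM in the ZnF1 mutant, and 1.2 and 1 RPKM in wild type. At 26.2 times wild type at day 21 and 24.3 times at day 28, it had the highest ratios of the list, and its difference of 3.77 ± 0.20 ranked as number 4 in size among all 11379 tested genes. The ZnF4 difference of Cd33 was not called (-0.36 ± 0.20, adjusted p = 0.285). Sirpa, the receptor for the self signal CD47, stood at 20.3 and 18.1 RPKM in the ZnF4 libraries, 125.3 and 122.8 RPKM in the ZnF1 mutant, and 31.1 and 17.1 RPKM in wild type. The ZnF4 values of Sirpa fell inside the wild type range (-0.26 ± 0.20, adjusted p = 0.438). Its ligand gene Cd47 was called lower in both mutants. The differences were -0.84 ± 0.07 in the ZnF4 mutant (adjusted p = 0.00248) and -0.27 ± 0.07 in the ZnF1 mutant (adjusted p = 0.0363). Cd84, a receptor of the SLAM family that B cells share, had the smallest ZnF1 difference of these 5 receptors, with 8.7 and 8.9 RPKM in the ZnF4 mutant, 34 and 35.2 RPKM in the ZnF1 mutant, and 15.3 and 14.3 RPKM in wild type. It was higher in the ZnF1 mutant by 1.17 ± 0.08 (adjusted p = 0.00102) and lower in the ZnF4 mutant (-0.69 ± 0.08, adjusted p = 0.00498). The ZnF4 call of Cd84 did not hold on omitting any of the ZnF4 or wild type libraries (adjusted p up to 0.0814).

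Cd86 and Cd80, the paired ligands of the T cell receptors CD28 and CTLA-4, were brought past the filter by the ZnF1 libraries alone. Cd86 stood at 0.2 and 0.1 RPKM in the ZnF4 libraries, 4.2 and 3.6 RPKM in the ZnF1 mutant, and 0.4 and 0.3 RPKM in wild type. Cd80 had 0.3 RPKM at both days in the ZnF4 mutant, 2.6 and 4.3 RPKM in the ZnF1 mutant, and 0.6 and 0.9 RPKM in wild type. Both stayed below 1 RPKM in every ZnF4 and wild type library, and their ZnF1 differences were 1.86 ± 0.10 and 1.32 ± 0.15.

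Effectors of digestion and oxidant production divided into genes that followed the rest and genes that did not. Mpeg1, a pore-forming protein of phagosomes, stood at 7 and 8.8 RPKM in the ZnF4 libraries, 96.4 and 95.6 RPKM in the ZnF1 mutant, and 26.4 and 14.3 RPKM in wild type. It followed the common order without overlap, with differences of -1.21 ± 0.26 in the ZnF4 mutant (adjusted p = 0.0359) and 2.24 ± 0.26 in the ZnF1 mutant (adjusted p = 0.00304). Its ZnF4 call ended on omitting the filter or any library other than the wild type one of day 28 (adjusted p up to 0.194), with a difference of -0.72 once the wild type library of day 21 was removed. The haem-degrading enzyme Hmox1 stood at 14.2 and 16 RPKM in the ZnF4 libraries, 64.9 and 89.8 RPKM in the ZnF1 mutant, and 16.5 and 12.7 RPKM in wild type, so that the ZnF4 values lay within the wild type range (0.05 ± 0.19, adjusted p = 0.876). The phagosomal metal transporter Slc11a1 stood at 0.9 and 1.9 RPKM in the ZnF4 libraries, 15.7 and 18.9 RPKM in the ZnF1 mutant, and 2.8 and 1.8 RPKM in wild type. Aif1, an actin-binding protein, stood at 0.4 and 0.6 RPKM in the ZnF4 libraries, 7.5 and 9 RPKM in the ZnF1 mutant, and 1.5 and 1 RPKM in wild type. They were higher in the ZnF1 mutant by 2.48 ± 0.25 and 2.04 ± 0.16, and were not called in the ZnF4 mutant.

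The phagocyte NADPH oxidase genes took different courses. Cybb, the catalytic subunit, which B cells also express, stood at 7.2 and 7 RPKM in the ZnF4 libraries, 49.5 and 49 RPKM in the ZnF1 mutant, and 37.4 and 31.9 RPKM in wild type. Its ZnF1 difference was small beside the list (0.50 ± 0.08, adjusted p = 0.0087), and omitting either ZnF1 library or the day 28 library of wild type ended its call (adjusted p up to 0.101). Its ZnF4 difference was the lowest of the list (-2.13 ± 0.08, adjusted p = 0.000537). Ncf1, the cytosolic organiser of the same enzyme, stood at 16.4 and 16.5 RPKM in the ZnF4 libraries, 21 and 21.1 RPKM in the ZnF1 mutant, and 5.5 and 4 RPKM in wild type. It was higher in both mutants, by 1.61 ± 0.12 in the ZnF4 mutant (adjusted p = 0.00175) and 1.95 ± 0.12 in the ZnF1 mutant (adjusted p = 0.001), and the direct difference between the mutants was not called (-0.34 ± 0.12, adjusted p = 0.0732), although the ZnF4 and ZnF1 libraries did not overlap. Among the partner genes of the enzyme, the membrane subunit Cyba was called higher in the ZnF1 mutant (1.04 ± 0.16, adjusted p = 0.00697) and Ncf4, another cytosolic subunit, lower in the ZnF4 mutant (-0.83 ± 0.08, adjusted p = 0.00392).

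The TAM receptor tyrosine kinases Mertk and Axl let macrophages clear dying cells. Axl stood at 2.8 and 3 RPKM in the ZnF4 libraries, 7.9 and 5.9 RPKM in the ZnF1 mutant, and 1.9 and 1.2 RPKM in wild type. It was higher in the ZnF1 mutant (1.63 ± 0.15, adjusted p = 0.00157), and its higher level in the ZnF4 mutant (0.63 ± 0.15, adjusted p = 0.0424) was no longer called with quantile scaling, nor on omitting the block on day, the filter, any ZnF1 or wild type library, or the day 28 library of the ZnF4 mutant, which left a difference of 0.40 (adjusted p up to 0.279). Mertk stood at 0.6 and 0.5 RPKM in the ZnF4 libraries, 7 RPKM at both days in the ZnF1 mutant, and 1.7 and 0.9 RPKM in wild type, and it passed the filter through the ZnF1 libraries (1.82 ± 0.15, adjusted p = 0.00134; not called in the ZnF4 mutant). Gas6 and Pros1, bridging ligands of the TAM family, tie such kinases to phosphatidylserine on dead cells. Both genes were called higher in both mutants, by 1.12 ± 0.25 and 0.61 ± 0.10 in the ZnF4 mutant and 2.25 ± 0.25 and 1.62 ± 0.10 in the ZnF1 mutant.

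Among the markers of alternative activation, Arg1, which encodes the enzyme that turns arginine into ornithine, stood at 14.5 and 8.9 RPKM in the ZnF4 libraries at day 21 and day 28, 16 and 11.7 RPKM in the ZnF1 mutant, and 3.3 and 1.8 RPKM in wild type. Both mutants lay above wild type and overlapped each other. The differences from wild type were 1.84 ± 0.10 in the ZnF4 mutant (adjusted p = 0.000846) and 2.08 ± 0.10 in the ZnF1 mutant (adjusted p = 0.001), and the difference between the mutants was not called (-0.25 ± 0.10, adjusted p = 0.0898). Retnla, a secreted resistin-like protein, stood at 0.5 and 0 RPKM in the ZnF4 libraries, 12.9 and 6.5 RPKM in the ZnF1 mutant, and 0.7 and 0.2 RPKM in wild type. The ZnF1 libraries stood apart (2.84 ± 0.13, adjusted p = 0.001), and the ZnF4 values overlapped those of wild type. Chi3l3, a chitinase-like lectin of the same programme, stayed at or below 0.2 RPKM.

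The transcription factors of the list were scarce. Maf, a factor of resident macrophages, stood at 2.4 and 1.9 RPKM in the ZnF4 libraries, 17.1 and 15.4 RPKM in the ZnF1 mutant, and 4.5 and 2.8 RPKM in wild type. It was higher in the ZnF1 mutant (1.91 ± 0.12, adjusted p = 0.00102) and lower in the ZnF4 mutant (-0.54 ± 0.12, adjusted p = 0.0396), the lower call ending on omission of any of the 6 libraries, the filter or the block on day (adjusted p up to 0.257). Cebpa, which specifies myeloid progenitors, had 0.3 RPKM at both days in the ZnF4 mutant, 4 and 8.8 RPKM in the ZnF1 mutant, and 1.3 and 0.9 RPKM in wild type. Cebpb, induced in activated macrophages, stood at 0.2 and 0.3 RPKM in the ZnF4 libraries, 3.1 and 6.5 RPKM in the ZnF1 mutant, and 0.6 and 0.7 RPKM in wild type. Both were called higher in the ZnF1 mutant (1.74 ± 0.30 and 1.75 ± 0.22) and neither was called in the ZnF4 mutant. Omitting the day 28 library of wild type ended both calls, and omitting the filter that of Cebpa (adjusted p up to 0.0983 for Cebpa and 0.0523 for Cebpb).

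A further 15 myeloid transcription factors were examined, of which 13 were tested. In the ZnF1 mutant 12 were higher and 0 lower, where 22.9% of all tested genes were higher and 15.2% lower. Among the 12 were Tcfec (1.96 ± 0.11), a relative of Mitf, the sterol receptor gene Nr1h3 (1.76 ± 0.14), Egr2 (1.52 ± 0.12) and Zeb2 (1.02 ± 0.07). Of the 12, Tcfec, Nr1h3, Egr2, Klf4, Batf3, Pparg and Bhlhe41 would not have been tested without the ZnF1 libraries. Of the 13, Bhlhe40 alone was called in the ZnF4 mutant (1.58 ± 0.15, adjusted p = 0.00326). The gene for PU.1, listed as Sfpi1 and named here after its values were seen, stood at 40.2 and 46.5 RPKM in the ZnF4 libraries, 84.4 and 83.2 RPKM in the ZnF1 mutant, and 44.9 and 48.4 RPKM in wild type. It was at least as abundant as most macrophage genes in the ZnF4 and wild type libraries, and B cells express it too. Of 20 further macrophage and monocyte genes 16 were tested. In the ZnF1 mutant 14 of them were higher and 0 lower, where 22.9% of tested genes were higher and 15.2% lower. Of the 14, Cx3cr1 would not have been tested without the ZnF1 libraries. In the ZnF4 mutant 1 was higher and 4 were lower, where 10.9% of tested genes were higher and 7.32% lower. The higher genes of the ZnF1 mutant included the cysteine protease Ctss (1.93 ± 0.12) and the Fc receptors Fcgr3 (2.20 ± 0.14) and Fcgr1 (2.07 ± 0.14). The lower genes of the ZnF4 mutant included Apoe (-1.57 ± 0.18), the apolipoprotein of macrophages, and Csf2rb (-1.20 ± 0.12), a shared cytokine receptor chain, while F13a1, a transglutaminase, was higher (1.43 ± 0.10). Csf1, the ligand of Csf1r, stood at 20.8 and 18.1 RPKM in the ZnF4 libraries, 64.1 and 43 RPKM in the ZnF1 mutant, and 25.1 and 23.7 RPKM in wild type, and was called higher in the ZnF1 mutant (1.08 ± 0.13, adjusted p = 0.00312).

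How alike the genes moved was described by dividing each by Csf1r in the same library. The 26 other genes at 1 RPKM or more in all 6 libraries had a median span of 10.3-fold between their highest and lowest library, and Csf1r itself spanned 10.6-fold. Their ratios to Csf1r spanned a median of 1.51-fold, and for 17 of the 26 the ratio stayed within 2-fold over all libraries. C1qa was the steadiest, at 1.06 and 1.11 times Csf1r in the ZnF4 mutant, 1.32 and 1.27 times in the ZnF1 mutant, and 1.04 and 1.30 times in wild type. Emr1, Clec4d, Msr1, Cd68, C5ar1 and Lyz2 came next. Mrc1, Cybb, Axl, Ncf1 and Arg1 spanned more than 3-fold. Arg1 was at 1.79 and 0.927 times Csf1r in the ZnF4 mutant, 0.187 and 0.152 times in the ZnF1 mutant, and 0.156 and 0.138 times in wild type. Ncf1 was at 2.02 and 1.72 times Csf1r in the ZnF4 mutant, 0.246 and 0.274 times in the ZnF1 mutant, and 0.259 and 0.308 times in wild type. For Arg1, Ncf1, Axl and Mrc1 both ZnF4 libraries were the highest. Cybb instead was highest in wild type, at 0.889 and 0.729 times Csf1r in the ZnF4 mutant, 0.579 and 0.636 times in the ZnF1 mutant, and 1.76 and 2.45 times in wild type. These ratios share the libraries and the values of Csf1r, and are a description without a test.

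**Figure D3:**
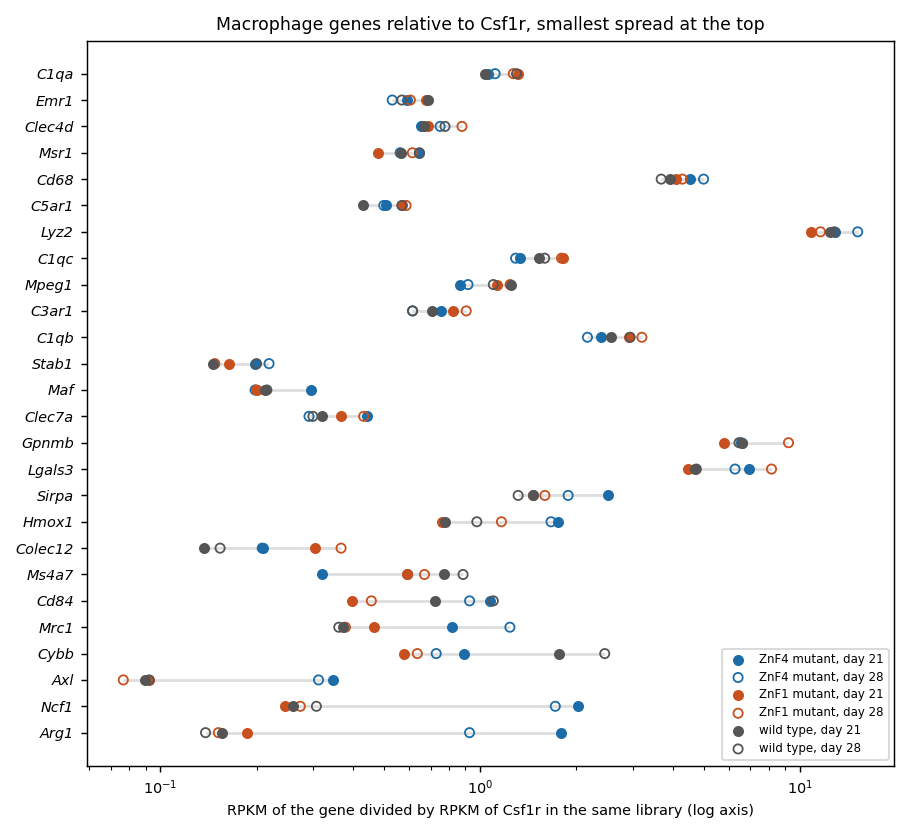
Level of 26 macrophage genes divided by that of Csf1r in the same library, on a log axis, ordered from the smallest spread over libraries at the top to the largest at the bottom. Genes from C1qa to Sirpa keep their ratio within 2-fold in all 6 libraries, and Arg1, Ncf1 and Axl are set apart by the ZnF4 libraries.

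A full order without overlap, both ZnF1 libraries above both wild type libraries and these above both ZnF4 libraries, was found for 27 of the 39 tested genes, where 8.99% of all tested genes had it. The 12 outside it were Cd68, Mrc1, Marco, Colec12, Siglec1, Axl, Ncf1, Slc11a1, Hmox1, Retnla, Arg1 and Sirpa.

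By day, the genes at 1 RPKM or more in both libraries compared had a median ratio of 0.441 between the ZnF4 mutant and wild type at day 21 (27 genes, of which 24 were below 1) and 0.738 at day 28 (29 genes, of which 20 were below 1). The median ratio between the ZnF1 mutant and wild type was 4.08 at day 21 (34 genes) and 6.45 at day 28 (31 genes). Within wild type all 31 such genes were lower at day 28 than at day 21, with a median ratio of 0.643, from 0.507 for Emr1 to 0.935 for Cd84. Within the ZnF4 mutant the median ratio of day 28 to day 21 was 1.13 (27 genes), and within the ZnF1 mutant 0.992 (39 genes). These ratios cover the macrophage genes alone, with no share of all genes beside them. Whether their direction is particular to the list cannot be told from them. Over the 3 genotypes together, limma called 0 of the 39 genes and 0 of the 11379 tested genes between the days (0% in either direction). At an unadjusted p below 0.05 there were 3 of the 39 (7.69%; Arg1, Maf and Retnla, all lower at day 28) and 14.3% of all tested genes. Whether a genotype difference changed with the day was not tested, since each genotype had 1 library per day.

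Markers of other cell types were read in the same libraries. Stromal markers moved with the macrophage genes: their summed level was 17.7 to 18.5 RPKM in the ZnF4 mutant, 164.1 to 172.5 RPKM in the ZnF1 mutant, and 25.2 to 39.1 RPKM in wild type. Of 9 tested stromal markers 9 were higher in the ZnF1 mutant, where 22.9% of all tested genes were. In the ZnF4 mutant 4 were lower, where 7.32% of all tested genes were. The collagen gene Col1a1 was among both (1.70 ± 0.10 and -0.59 ± 0.10). Dcn, Col3a1, Pdgfra and Pdgfrb would not have been tested without the ZnF1 libraries, and Lum was listed at 0 everywhere. Granulocyte markers had summed levels of 0.5 to 2.5 RPKM in the ZnF4 mutant, 3.7 RPKM in both ZnF1 libraries, and 0.6 to 1.2 RPKM in wild type, with the granule genes Elane, Mpo and Ltf listed at 0 in all 6. S100a8, the 1 granulocyte marker tested, was called higher in the ZnF1 mutant than in wild type (1.07 ± 0.21, adjusted p = 0.0155) and lower in the ZnF4 than in the ZnF1 mutant (-1.13 ± 0.21, adjusted p = 0.0104). It passed the filter only through the ZnF1 libraries, with 1.2 and 2.1 RPKM there and at most 0.4 RPKM elsewhere. Dendritic cell markers summed to 3 to 3.6 RPKM in the ZnF4 mutant, 14 to 16.3 RPKM in the ZnF1 mutant, and 3.4 to 4.7 RPKM in wild type, and both that were tested, Itgax (1.81 ± 0.14), which macrophages also express, and Ccr7 (1.32 ± 0.15), were called higher in the ZnF1 mutant. Mast cell and basophil markers summed to 0.5 to 0.7 RPKM in the ZnF4 mutant, 3.9 to 4.9 RPKM in the ZnF1 mutant, and were listed at 0 in wild type. Of these the protease gene Cpa3, with 3.3 and 3.4 RPKM in the ZnF1 mutant, was called higher there than in wild type (adjusted p = 0.001). Cpa3 too passed the filter only through the ZnF1 libraries. Endothelial markers summed to 14.1 to 15.1 RPKM in the ZnF4 mutant, 28.9 to 30.3 RPKM in the ZnF1 mutant, and 25.4 to 26.5 RPKM in wild type, mostly from Pecam1. Of the 2 tested, Kdr was called higher in the ZnF1 mutant (1.21 ± 0.18, limma adjusted p = 0.00596) and Pecam1 lower in the ZnF4 mutant (-0.95 ± 0.08, adjusted p = 0.0022). Kdr stood at 0.8 and 0.5 RPKM in the ZnF4 libraries, 2.5 and 1.2 RPKM in the ZnF1 mutant, and 0.2 RPKM at both days in wild type. It passed the filter only through the ZnF1 libraries. Cdh5, which was not tested, was highest in the ZnF4 mutant (0.8 and 1.3 RPKM), and Tek and Vwf stayed at or below 0.1 and 0.8 RPKM. T and NK cell markers summed to 0.3 RPKM in both ZnF4 libraries, 7.5 to 9.1 RPKM in the ZnF1 mutant, mostly from Cd4, and 0.4 to 0.8 RPKM in wild type, with Cd3e, Cd3g and Cd8a listed at 0. The part of other cell types in these results was not tested.

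**Figure D4:**
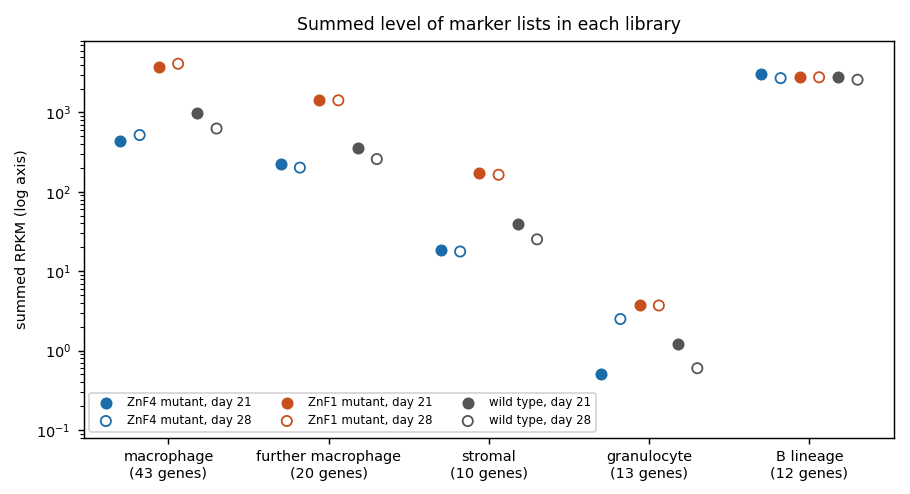
Summed RPKM of 5 lists of marker genes in each library, on a log axis, with filled symbols for day 21 and open symbols for day 28. The macrophage, further macrophage and stromal sums are highest in the ZnF1 mutant and lowest in the ZnF4 mutant, the granulocyte sum stays under 4 RPKM, and the B-lineage sum lies between 2582.8 and 3024.3 RPKM in all 6.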

How the data were processed

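Poly(A) RNA of 6 libraries was sequenced on an Illumina platform, per the labels' protocols, from fragmented double-stranded cDNA with no strand-marking step named. The submitters' processing notes name TopHat and bedtools with build mm9, without versions. The authors deposited RPKM values, rounded to 1 decimal, for 26531 RefSeq transcript rows with their lengths, and 1 row without a gene was left out. Depth is unknown, so no counting interval is given.

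From these, log2(RPKM + 1) values were fitted with limma (version 3.58.1, R 4.3.3; genotype and day additive, trend, 2 residual and 3.22 prior degrees of freedom). Libraries of the same day carry the same number in the labels, and the model therefore holds day as a block. Changes between days correlated over genes at 0.433, 0.249 and 0.226 between pairs of genotypes. No pair of libraries was identical. Tested on simulated data (ZnF1 mutant and wild type, 11379 genes), the fit recovered 61% of changes of 1 and 86% of changes of 2 log2 units, with 5 false calls. The simulation changed 100 genes by each size and held no day effect. In the data 38.1% of tested genes were called in that comparison, so these rates need not carry over.

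The members and the other marker lists (164 of 165 entries matched, 4 by an older symbol) were chosen with earlier results of these data known. All members are accounted for, and other genes are named from the lists by smallest p, at most 4 per list and comparison, or as listed at 0. Some further listed genes are named to show limits of the filter or of a list. Promoters were taken by the size of the ZnF4 minus ZnF1 difference. Alternatives changed the pseudocount, filter, scaling, block, choice of row, trend or libraries.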

Additional observations from a re-analysis of the deposited data

Results flagged for a closer look

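Some macrophage genes went opposite ways between the days in different genotypes, by at least 1.25-fold each way. Each value is 1 library per day, and the difference was not tested. The ratio of day 28 to day 21 for Cd68 was 1.30 in the ZnF4 mutant and 0.574 in wild type. It was 1.39 and 0.632 for Lyz2 in the ZnF4 mutant and wild type, 1.26 and 0.542 for Mpeg1, 1.36 and 0.711 for Clec4d, and 2.19 and 0.701 for Ms4a7. Mrc1 had a ratio of 1.80 in the ZnF4 mutant, 0.736 in the ZnF1 mutant and 0.595 in wild type. The ratio for Lgals3 was 1.64 in the ZnF1 mutant and 0.620 in wild type. It was 1.43 and 0.601 for Gpnmb in the ZnF1 mutant and wild type, and 1.38 and 0.770 for Hmox1.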

How the results depend on the processing

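No called macrophage gene changed direction under the alternatives run. For the ZnF4 mutant against wild type, 17 genes were called, 4 without the filter (2 higher, 2 lower) and 4 to 12 with 1 library left out. The cause was not tested. The other alternatives gave 13 to 21. All tested genes called there numbered 2076, 1137 without the filter and 403 to 1662 with 1 library left out. For the ZnF1 mutant against wild type, where 38 were called, leaving out 1 library gave 30 to 38, and for the ZnF4 against the ZnF1 mutant, where 37 were called, 30 to 37. Where a ZnF1 library was left out, 34 of the macrophage genes could be tested. Without the replicate block the counts were 13, 38 and 37, in the order ZnF4 against wild type, ZnF1 against wild type and ZnF4 against ZnF1. The calls this ended were those of Csf1r, Emr1, Axl and Maf in the ZnF4 mutant, and it changed no other. No fit without the block exists for the comparison of days, in which 0 macrophage genes were called throughout. Values are rounded to 0.1 RPKM, which limits the genes near that level.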

Other observations

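Genes named for osteoclasts, cells of the macrophage lineage that resorb bone, differed in direction in the ZnF4 mutant. In the ZnF1 mutant all 3 tested had positive differences from wild type, and Tm7sf4, a membrane protein of osteoclast fusion, was called (1.17 ± 0.10, limma adjusted p = 0.0015). Tm7sf4 passed the filter only through the ZnF1 libraries, and its ZnF4 difference was not called (-0.28 ± 0.10, adjusted p = 0.129). Ctsk, the collagen-digesting cathepsin, stood at 28.9 and 47 RPKM in the ZnF4 libraries at day 21 and day 28, 8.6 and 34.3 RPKM in the ZnF1 mutant, and 6.5 and 8 RPKM in wild type. It was called higher in the ZnF4 mutant (2.21 ± 0.37, limma adjusted p = 0.0172) and not in the ZnF1 mutant (1.16 ± 0.37, adjusted p = 0.0605). Acp5, the tartrate-resistant phosphatase, stood at 2.9 and 9.8 RPKM in the ZnF4 libraries, 31.5 and 85.9 RPKM in the ZnF1 mutant, and 29.4 and 34.9 RPKM in wild type. It was called lower in the ZnF4 mutant (-2.35 ± 0.31, adjusted p = 0.00839) and not called in the ZnF1 mutant (0.69 ± 0.31, adjusted p = 0.14). In every genotype Ctsk and Acp5 were higher at day 28, each value being 1 library. Pf4, the platelet chemokine, stood at 13.6 and 20.7 RPKM in the ZnF4 libraries, 70.2 and 79.2 RPKM in the ZnF1 mutant, and 25.3 and 30 RPKM in wild type. The other megakaryocyte markers read, Itga2b and Gp1bb, stayed at or below 0.2 and 0.8 RPKM in every library. The erythroid gene Hba-a1 was listed at 0.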
